A study of Mus musculus with 8 samples.

Results

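The 38 genes described here are interferon-stimulated genes, a set of antiviral effectors, nucleic acid sensors, transcription factors and GTPases whose RNA is raised by interferons. They were taken by gene symbol from the 25078 genes of the deposited count table, and all 38 were found there. The RNA came from livers of male C57/BL6 mice, 3 labelled as hemizygotes for a global Midn knockout allele and 5 labelled wild type. All 8 mice had a diet rich in fat, fructose and cholesterol for 25 weeks, which the study used as a model of fatty liver disease. Midn encodes midnolin, a protein that carries other nuclear proteins to the proteasome. The knockout is global, so every cell type of the liver carries the genotype. Homozygous knockout mice mostly die before birth, per the study's design text, and the mice labelled het keep 1 intact copy. Which bases of Midn the allele lacks, the age of the mice, their litters and any batches are not given in the labels used here, so p-values cover only how far these samples spread.

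Interferons are secreted proteins that warn cells of infection. Type I interferons signal through a receptor made of Ifnar1 and Ifnar2, and the kinases Jak1 and Tyk2 then activate a complex that holds Stat2 and Irf9 (ISGF3), which binds the interferon-stimulated response element (ISRE) in promoters. Interferon gamma signals through Ifngr1 and Ifngr2 and acts on promoters through the gamma-activated sequence (GAS), and Irf1, made in that response, binds ISRE-like sites as well. In liver, hepatocytes, Kupffer cells and other immune cells respond to both kinds, and most of the 38 genes can be raised by either. By general knowledge of which interferon is the stronger inducer, 31 members were classed as type I-dominant and 7 as gamma-dominant (Irf1, Gbp2, Gbp3, Gbp7, Irgm1, Igtp and Iigp1).

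To show the elements named above, 5 promoters of members are printed 5′ to 3′ on the strand of the gene, each running from 250 bases before the transcription start to 50 bases after it, as given by RefSeq on GRCm38.p6. Capitals mark ISRE letters (GAAA, any 2 bases and GAAA, on either strand, which reads TTTC, any 2 bases and TTTC on the other) in the first 4 and GAS letters (TTCNNNGAA, the same on both strands) in the last. Ifit1 (chr19:34640639-34640938, plus strand) has 2 such runs, Isg15 (chr4:156200769-156201068, minus strand) has 3 that overlap, Oas1a (chr5:120907476-120907775, minus strand) has 2 that overlap, Gbp2 (chr3:142620413-142620712, plus strand) has 1, and Irf1 (chr11:53769764-53770063, plus strand) has 1 GAS.
Ifit1: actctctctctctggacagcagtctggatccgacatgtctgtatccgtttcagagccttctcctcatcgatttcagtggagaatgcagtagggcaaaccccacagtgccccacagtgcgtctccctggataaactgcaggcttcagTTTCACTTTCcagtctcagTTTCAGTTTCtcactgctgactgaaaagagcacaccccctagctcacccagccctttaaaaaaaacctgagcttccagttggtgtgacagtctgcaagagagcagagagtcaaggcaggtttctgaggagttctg
Isg15: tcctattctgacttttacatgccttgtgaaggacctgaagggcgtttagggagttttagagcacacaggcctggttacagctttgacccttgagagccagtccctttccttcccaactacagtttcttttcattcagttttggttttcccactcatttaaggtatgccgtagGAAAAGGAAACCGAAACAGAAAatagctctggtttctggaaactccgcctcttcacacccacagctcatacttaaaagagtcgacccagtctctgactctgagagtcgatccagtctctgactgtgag
Oas1a: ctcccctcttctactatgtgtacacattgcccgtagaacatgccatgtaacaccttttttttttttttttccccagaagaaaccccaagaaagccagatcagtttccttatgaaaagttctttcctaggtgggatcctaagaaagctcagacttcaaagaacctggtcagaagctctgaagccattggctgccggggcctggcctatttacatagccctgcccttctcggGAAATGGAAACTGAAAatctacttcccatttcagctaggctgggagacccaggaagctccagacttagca
Gbp2: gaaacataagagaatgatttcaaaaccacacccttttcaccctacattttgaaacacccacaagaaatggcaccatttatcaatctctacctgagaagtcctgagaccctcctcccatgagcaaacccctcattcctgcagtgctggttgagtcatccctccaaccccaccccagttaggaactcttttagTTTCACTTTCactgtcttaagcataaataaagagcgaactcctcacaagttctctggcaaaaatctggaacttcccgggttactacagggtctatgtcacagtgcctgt
Irf1: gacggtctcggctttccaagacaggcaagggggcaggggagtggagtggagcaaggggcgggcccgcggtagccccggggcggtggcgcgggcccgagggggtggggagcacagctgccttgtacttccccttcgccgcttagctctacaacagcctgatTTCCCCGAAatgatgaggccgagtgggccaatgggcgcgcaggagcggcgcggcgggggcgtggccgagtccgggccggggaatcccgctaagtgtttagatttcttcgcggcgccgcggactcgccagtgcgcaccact
RefSeq windows were matched for 28 of the 38 members, and not for Iigp1, Oas2, Mx2, Usp18, Parp9, Dhx58, Zbp1, Ifi27, Parp14 and Mx1. The ISRE letters stood in the windows of 16 of these 28 genes (57.1%), against 3.99% of all 27025 genes in the promoter table and 3.44% of its 32851 windows. GAS letters stood in 9 of the 28 (32.1%), against 9.55% of all genes and 8.3% of all windows. Both motifs were found in 5 members and neither in 8. Among the type I-dominant members 11 of 22 had an ISRE and 6 had a GAS, and among the gamma-dominant members 5 of 6 had an ISRE and 3 had a GAS. A match describes the letters of these windows only.

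**Figure D1:**
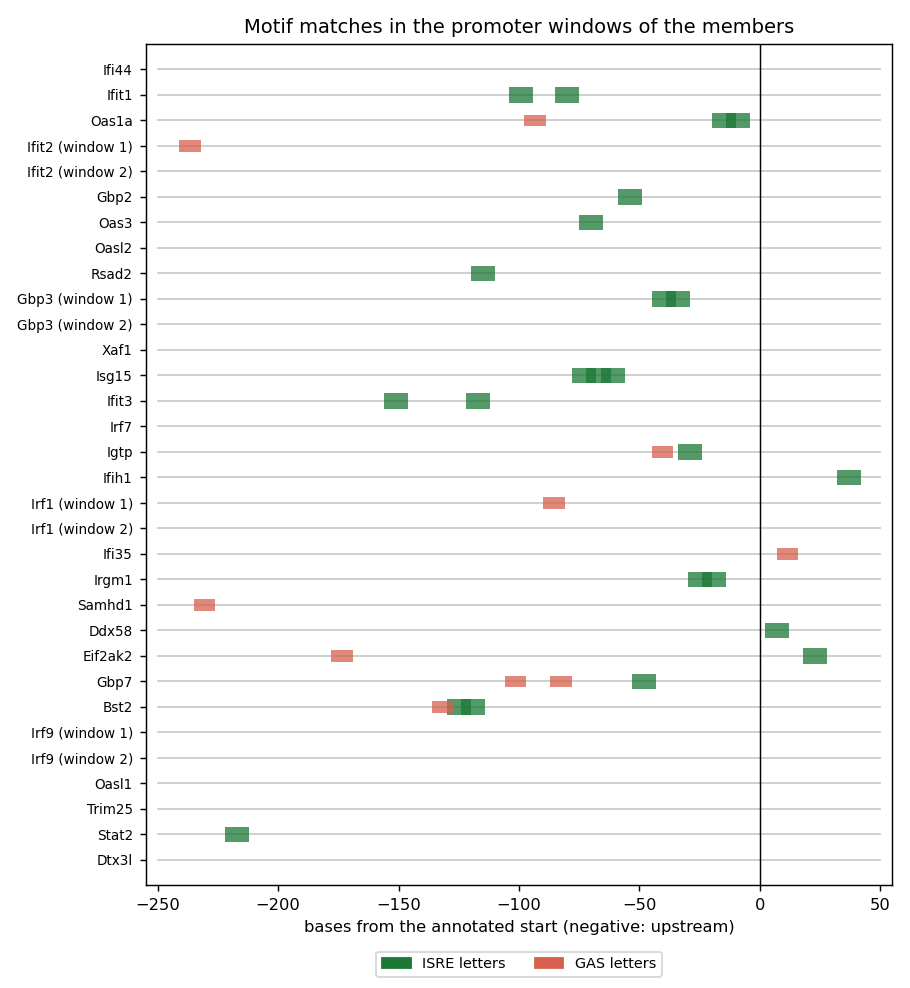
Positions of ISRE and GAS letters in the RefSeq promoter windows of the 28 members that have one. The horizontal axis is the distance from the transcription start in bases, negative upstream, and each mark is 1 match. ISRE letters occur in 16 of the 28 genes, and in Ifit1, Isg15, Oas1a and Gbp2 they lie within 104 bases upstream of the start.

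The libraries held 17508221 to 24916239 counts in het-labelled livers and 18687680 to 21064473 counts in wild-type livers, and the members had between 64 and 14113 counts in a library. Values below are CPM, the count relative to a library total scaled by edgeR's TMM method, listed for het-labelled livers 1, 2 and 3 and wild-type livers 1 to 5 in that order. Midn itself had 60.4, 39.1 and 51.7 CPM in het-labelled livers and 68.7, 39.8, 71.5, 41.7 and 29.3 CPM in wild-type livers, so its RNA did not separate the genotypes (log2 fold change 0.0043 (SE 0.30)), and the libraries are called het-labelled throughout. The wild-type libraries fell into a pair of sets in their share of Rpph1, a short RNA without a poly(A) tail. Rpph1 took 0.331% and 0.304% of counts in wild-type livers 1 and 3, against 0.899%, 0.673% and 1.06% in wild-type livers 2, 4 and 5. The het-labelled livers had 0.229%, 0.399% and 0.288%. Summed hepatocyte markers (Alb, Ttr, Apoa1, Apoh, Hnf4a, Cps1 and Trf) were 48550 to 82200 CPM in het-labelled livers and 41430 to 52710 CPM in wild-type livers, as the liver label implies.

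Most interferon-stimulated genes had lower estimates in het-labelled than in wild-type livers, but no single member passed edgeR's adjusted threshold. The log2 fold change of het-labelled over wild-type livers was negative for 32 of the 38 members and positive for 6, with a median of −0.28, against 0.00 over all 14438 genes tested. At an unadjusted p under 0.05, 11 members were lower, while 5.43% of all genes tested were lower. None was higher, while 10.3% of all genes were. Every het-labelled library was below every wild-type library for 9 members, while 2.32% of all genes had that order, and none stood above every wild-type library, which 7.54% of genes did. All 38 members passed the filter on low counts, so these counts cover the whole set. These shares of all genes also apply to the counts by role, class or list below, unless another fit is named.

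edgeR's quasi-likelihood test with Benjamini-Hochberg adjustment over the 14438 genes called 0 members and 0% of all genes, and its smallest adjusted p was 0.259. DESeq2, run as an alternative, called Ifi44, Zbp1, Gbp2, Mx1 and Ifit2 lower at an adjusted p under 0.05, and it called 0.528% of all genes lower and 0.694% higher. It called 0 members higher. For the 9 members with no overlap, that order fixes the two-sided exact permutation p over the 56 assignments at 0.0357. This is the smallest that 3 against 5 livers allow, so it restates the order and adds nothing to it. Adjusted over all genes, the permutation p was 0.362. The 95% interval of the log2 fold change excluded a 2-fold fall for 25 of the 38 members and for 10470 of the 14438 genes tested. Because these are whole livers, fewer cells of a type and less RNA per cell cannot be told apart.

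**Figure D2:**
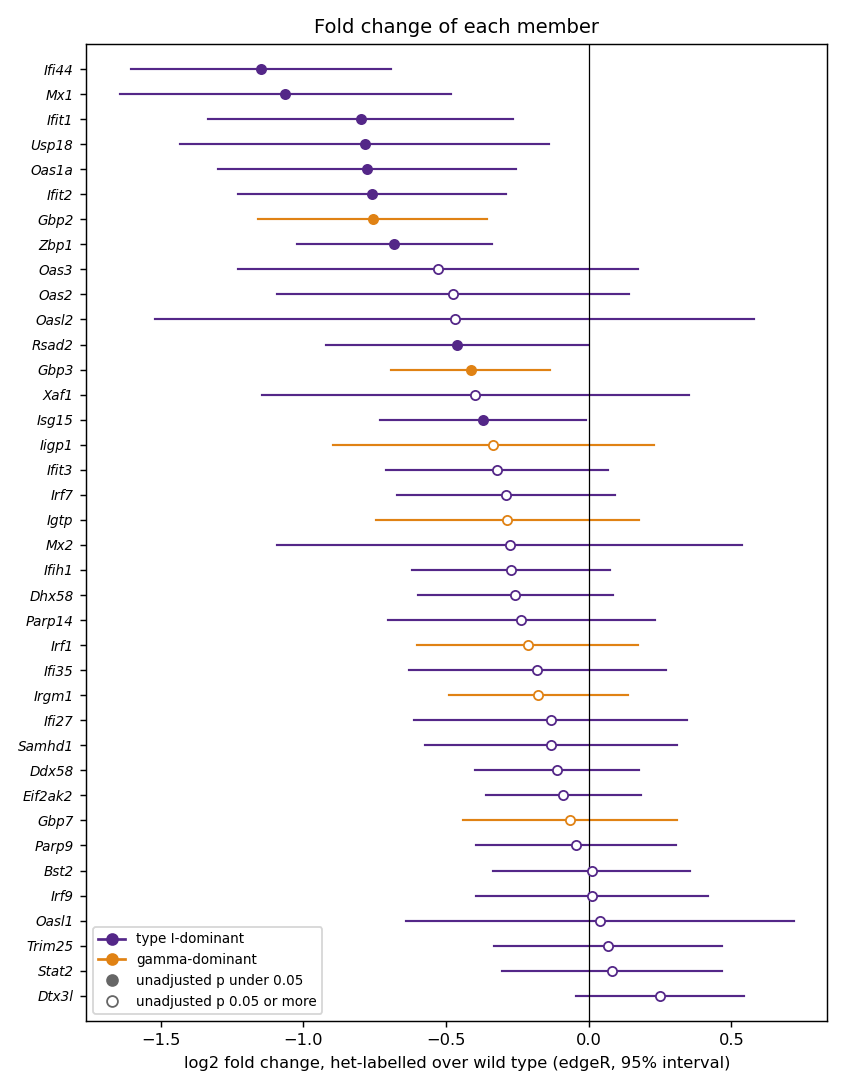
Log2 fold change of het-labelled over wild-type livers for each of the 38 members, sorted by it. Points are edgeR estimates from 3 het-labelled and 5 wild-type livers, bars are 95% intervals, colours give the dominant interferon, and filled points have an unadjusted p under 0.05. The estimates run from −1.15 for Ifi44 to 0.25 for Dtx3l, and 32 of 38 lie left of 0.

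**Figure D3:**
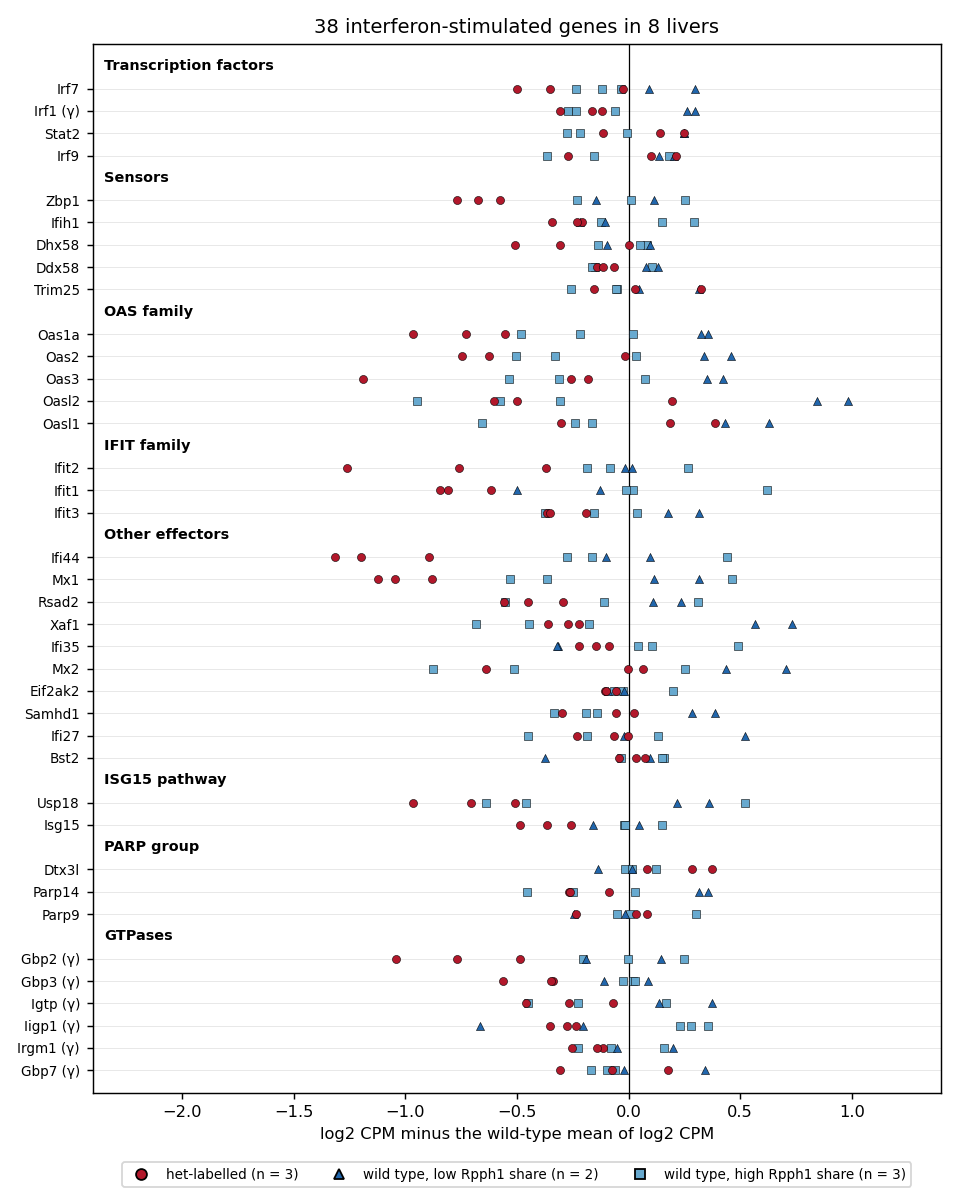
Log2 CPM of each member in each library minus the gene's mean over the wild-type livers, as a point per library. Symbols set apart the het-labelled livers, wild-type livers 1 and 3 and wild-type livers 2, 4 and 5, and genes run down the page by role. The het-labelled points lie left of every wild-type point for 9 members.

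Few reads were counted for the interferon genes themselves. The counting mode is not given, so reads that match more than a single gene may be missing. Of 21 interferon genes listed, 17 had no count in any of the 8 livers, among them Ifnb1, the genes of the alpha family and the lambda genes Ifnl2 and Ifnl3. A count of 0 allows up to 3 counts in a library, which is 0.112 to 0.181 CPM, and covers counting error only. Ifng, which encodes interferon gamma, had 0, 3 and 1 counts in het-labelled livers and 4, 4, 5, 0 and 0 counts in wild-type livers. No interferon gene had more than 5 counts in a library, and none entered the test.

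Of 10 receptor and kinase genes, 2 (Il10rb and Ifngr1) were lower and 0 higher at an unadjusted p under 0.05, with a median log2 fold change of −0.17, while 5.43% of all genes were lower. Ifnar1 had 77.7, 74.6 and 77.4 CPM in het-labelled livers and 83.7, 80.9, 84.5, 68.9 and 68.9 CPM in wild-type livers, a log2 fold change of −0.016 (SE 0.13). Its partner Ifnar2 had 55.997, 55.6 and 55.3 CPM in het-labelled livers and 63.4, 51.2, 54.7, 53.4 and 49.1 CPM in wild-type livers, a log2 fold change of 0.034 (SE 0.13). For both subunits of the type I receptor the het-labelled values lay inside the wild-type range. Ifngr1, the ligand-binding chain of the gamma receptor, had 30.2, 40.6 and 28.9 CPM in het-labelled livers and 45.6, 49.1, 53.9, 35.4 and 40.6 CPM in wild-type livers, and was lower at an unadjusted p under 0.05 with a log2 fold change of −0.43 (SE 0.18) and an edgeR adjusted p of 0.303. Ifngr2, its signalling chain, had 44.7, 57.2 and 51.5 CPM in het-labelled livers and 42.6, 78.5, 46.02, 68.5 and 80.98 CPM in wild-type livers, a log2 fold change of −0.31 (SE 0.24). The groups overlapped for both chains, and the low Ifngr1 values were those of het-labelled livers 1 and 3. Il10rb, a chain shared by the receptors for interferon lambda and interleukin 10, had 18.2, 29.1 and 17.9 CPM in het-labelled livers and 27.8, 30.2, 30.6, 31.1 and 31.3 CPM in wild-type livers, overlapping only through het-labelled liver 2, with a log2 fold change of −0.48 (SE 0.18) and an edgeR adjusted p of 0.279. Ifnlr1, the other chain of the interferon lambda receptor, had 0.507, 1.78 and 0.429 CPM in het-labelled livers and 1.91, 2.01, 3.29, 0.934 and 0.903 CPM in wild-type livers, with overlapping groups and a log2 fold change of −1.02 (SE 0.61), and the kinase Jak2 had −0.21 (SE 0.13).

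Of the 4 transcription factors among the members, 0 were lower at an unadjusted p under 0.05. Irf7, which amplifies type I interferon production, had 35.9, 32.5 and 45.1 CPM in het-labelled livers and 56.4, 42.3, 48.9, 44.8 and 39.01 CPM in wild-type livers, a log2 fold change of −0.29 (SE 0.17) with an edgeR adjusted p of 0.405. Irf1, a factor for gamma-induced genes, had 41.4, 40.1 and 36.4 CPM in het-labelled livers and 55.3, 43.1, 53.9, 38.2 and 37.3 CPM in wild-type livers, a log2 fold change of −0.21 (SE 0.17). For Irf7 het-labelled livers 1 and 2 were below every wild-type liver and for Irf1 only het-labelled liver 3 was, so the groups overlapped in both. Against wild-type livers 1 and 3 alone, the higher ones for both genes, the log2 fold change was −0.54 for Irf7 and −0.54 for Irf1, and each was lower at an unadjusted p under 0.05 with every het-labelled library below both. Stat2 had 75.8, 58.9 and 70.3 CPM in het-labelled livers and 75.9, 54.97, 75.8, 63.6 and 52.7 CPM in wild-type livers, a log2 fold change of 0.081 (SE 0.17). Irf9, the DNA-binding part of ISGF3, had 34.8, 26.9 and 37.5 CPM in het-labelled livers and 37.3, 36.7, 35.6, 29.2 and 25.2 CPM in wild-type livers, a log2 fold change of 0.012 (SE 0.18). The estimates for Stat2 and Irf9 were near 0 and the groups overlapped. Stat2 overlaps Apof on the same strand, so reads of the shared bases are uncertain.

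Among the 5 sensors of foreign RNA and DNA, 1 was lower at an unadjusted p under 0.05. That was Zbp1 (mm10 chr2:173206612-173218922, minus strand), a sensor of left-handed nucleic acid that can start cell death. Zbp1 had 13.6, 14.5 and 12.7 CPM in het-labelled livers and 23.4, 25.8, 19.5, 18.4 and 21.7 CPM in wild-type livers, a log2 fold change of −0.68 (SE 0.15), with an adjusted p of 0.259 in edgeR and 0.00665 in DESeq2. Every het-labelled library was below every wild-type library. Ifih1 (MDA5), a sensor of long double-stranded RNA, had 83.2, 75.9 and 82.2 CPM in het-labelled livers and 89.5, 118, 82.9, 88.3 and 107 CPM in wild-type livers, a log2 fold change of −0.27 (SE 0.15). Dhx58 (LGP2), a regulator of that sensor, had 15.03, 13.1 and 18.6 CPM in het-labelled livers and 19.9, 19.7, 17.4, 16.9 and 19.3 CPM in wild-type livers, a log2 fold change of −0.26 (SE 0.15). Ddx58 (RIG-I), a sensor of RNA with 5′ triphosphates, had 50.5, 53.2 and 51.5 CPM in het-labelled livers and 60.97, 59.8, 58.8, 50.1 and 49.6 CPM in wild-type livers, a log2 fold change of −0.11 (SE 0.13). The last 3 overlapped between the groups, and Trim25, the ubiquitin ligase that acts on RIG-I, had a log2 fold change of 0.068 (SE 0.18).

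In the OAS family, enzymes that make the second messenger which activates RNase L, the median log2 fold change was −0.48 and 1 of 5 members was lower at an unadjusted p under 0.05. Oas1a (mm10 chr5:120896257-120907525, minus strand) had 5.25, 6.995 and 6.19 CPM in het-labelled livers and 13.1, 10.4, 12.8, 8.84 and 7.35 CPM in wild-type livers, a log2 fold change of −0.78 (SE 0.23), with an adjusted p of 0.259 in edgeR and 0.0654 in DESeq2. The het-labelled livers were all below the lowest wild-type liver, wild-type liver 5, by a small margin. Oas2 had 7.74, 12.9 and 8.43 CPM in het-labelled livers and 16.4, 9.17, 17.9, 13.3 and 10.4 CPM in wild-type livers, a log2 fold change of −0.48 (SE 0.27). Oas3 had 2.95, 5.92 and 5.62 CPM in het-labelled livers and 8.57, 4.64, 9.002, 7.08 and 5.42 CPM in wild-type livers, a log2 fold change of −0.53 (SE 0.31). In both genes wild-type livers 1 and 3 were highest and the groups overlapped. Oasl2, an OAS-like protein, had 10.9, 18.995 and 11.7 CPM in het-labelled livers and 29.8, 11.1, 32.8, 13.4 and 8.61 CPM in wild-type livers, a log2 fold change of −0.47 (SE 0.47). Wild-type livers 1 and 3 again stood far above the other 6 livers. Oasl1, which represses translation of Irf7, had a log2 fold change of 0.040 (SE 0.30). Oas1a has close copies beside it, so how reads were split among them is uncertain.

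The IFIT family, proteins that bind foreign RNA and block its translation, had the lowest median of the role groups, a log2 fold change of −0.76, and 2 of its 3 members were lower at an unadjusted p under 0.05. Ifit1 (mm10 chr19:34640889-34650009, plus strand) had 20.6, 23.5 and 20.1 CPM in het-labelled livers and 33.04, 55.5, 25.5, 36.5 and 35.8 CPM in wild-type livers, a log2 fold change of −0.80 (SE 0.24), with an adjusted p of 0.259 in edgeR and 0.0654 in DESeq2. Ifit2 (mm10 chr19:34550694-34576534, plus strand) had 13.6, 25.2 and 19.3 CPM in het-labelled livers and 32.2, 39.3, 32.98, 28.6 and 30.8 CPM in wild-type livers, a log2 fold change of −0.76 (SE 0.21), with an adjusted p of 0.259 in edgeR and 0.0454 in DESeq2. Neither gene overlapped between the groups, and wild-type liver 2 was the highest library for both. Ifit3 had 25.9, 29.3 and 26.2 CPM in het-labelled livers and 41.7, 34.3, 37.8, 30.04 and 25.8 CPM in wild-type livers, a log2 fold change of −0.32 (SE 0.17), and there wild-type liver 5 was the lowest library of all 8. The 3 genes lie in a cluster of similar copies, so how reads were split among them is uncertain. In the deposited coordinates each overlaps the same small RNA entries on the other strand. As the 3 genes do not overlap each other, those entries span far more than a small RNA, and whether any reads are shared is not known.

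Among 10 other antiviral effectors, 3 were lower at an unadjusted p under 0.05 (Ifi44, Mx1 and Rsad2). Ifi44 (mm10 chr3:151730923-151749910, minus strand), a protein linked to slower cell growth, had 8.11, 10.9 and 8.82 CPM in het-labelled livers and 18.8, 27.5, 21.6, 16.7 and 18.1 CPM in wild-type livers. It had the smallest p of the 38 members and a log2 fold change of −1.15 (SE 0.20), with an adjusted p of 0.259 in edgeR and 2.81e-04 in DESeq2. The highest het-labelled value was well below the lowest wild-type value. Mx1 (mm10 chr16:97447035-97462906, minus strand), a dynamin-like GTPase against influenza virus, had 5.02, 5.65 and 4.77 CPM in het-labelled livers and 12.9, 14.3, 11.2, 7.19 and 8.07 CPM in wild-type livers, a log2 fold change of −1.06 (SE 0.26), with an adjusted p of 0.259 in edgeR and 0.0120 in DESeq2. The Mx1 allele of C57BL/6 mice is known to be defective, so these values concern RNA alone. Rsad2 (viperin), which makes a chain-terminating nucleotide, had 17.01, 18.4 and 20.4 CPM in het-labelled livers and 29.5, 31.1, 27.1, 23.2 and 17.1 CPM in wild-type livers, a log2 fold change of −0.46 (SE 0.20) with an edgeR adjusted p of 0.315. For Rsad2 wild-type liver 5 lay among the het-labelled livers, so the groups overlapped, and it was lower at an unadjusted p under 0.05 in 8 of the 20 alternatives. Xaf1, a pro-apoptotic protein, had 7.97, 8.77 and 8.48 CPM in het-labelled livers and 15.2, 9.07, 17.03, 7.52 and 6.38 CPM in wild-type livers, a log2 fold change of −0.40 (SE 0.33), with wild-type livers 1 and 3 far above the rest.

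The other 6 effectors had small estimates and overlapping groups. The log2 fold change was −0.28 (SE 0.36) for Mx2, a relative of Mx1. It was −0.18 (SE 0.20) for Ifi35 and −0.13 (SE 0.21) for Ifi27, which overlaps Ifi27l2a on the other strand. It was −0.13 (SE 0.20) for Samhd1, which breaks down the nucleotides that viruses need. It was −0.089 (SE 0.12) for Eif2ak2 (PKR), the kinase that halts translation, and 0.011 (SE 0.15) for Bst2 (tetherin), which holds budding virus at the cell surface.

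Both members of the ISG15 pathway were lower at an unadjusted p under 0.05. Isg15 (mm10 chr4:156199424-156200818, minus strand), a ubiquitin-like protein, had 5.44, 5.87 and 5.003 CPM in het-labelled livers and 7.24, 7.78, 6.28, 6.92 and 6.92 CPM in wild-type livers, a log2 fold change of −0.37 (SE 0.16) with an edgeR adjusted p of 0.311, and the groups did not overlap. Usp18, which removes Isg15 from proteins and dampens the type I receptor, had 11.1, 15.2 and 13.3 CPM in het-labelled livers and 27.8, 31.1, 25.2, 15.8 and 13.9 CPM in wild-type livers, a log2 fold change of −0.79 (SE 0.29) with an edgeR adjusted p of 0.273. For Usp18, wild-type livers 4 and 5 lay close to or among the het-labelled livers. Over the 20 alternatives, Usp18 was lower at an unadjusted p under 0.05 in 17 and Isg15 in 12. Both calls were lost without het-labelled liver 1 or 3, and that of Isg15 also without wild-type liver 1, 2, 4 or 5.

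The 3 members of the PARP group had none lower at an unadjusted p under 0.05. Dtx3l, a ubiquitin ligase that works with Parp9, had 138, 113 and 130.4 CPM in het-labelled livers and 108, 106, 97.2, 116 and 108 CPM in wild-type livers, the highest log2 fold change of the members at 0.25 (SE 0.13) with an edgeR adjusted p of 0.366. Parp14, which adds ADP-ribose to proteins, had 116, 102 and 103 CPM in het-labelled livers and 153, 126, 158, 104 and 89.9 CPM in wild-type livers, a log2 fold change of −0.24 (SE 0.21). Parp9 had 90.3, 72.4 and 87.2 CPM in het-labelled livers and 84.6, 105, 72.1, 85.7 and 82.4 CPM in wild-type livers, a log2 fold change of −0.045 (SE 0.16). The groups overlapped in all 3 genes. Dtx3l and Parp9 overlap on opposite strands, and their reads cannot be told apart without a stated use of strand.

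The 6 guanylate-binding and immunity-related GTPases, which attack membranes around intracellular pathogens, all had negative estimates under each scaling tried, with 2 lower at an unadjusted p under 0.05. Gbp2 (mm10 chr3:142620663-142638008, plus strand) had 14.5, 17.6 and 12.01 CPM in het-labelled livers and 21.7, 29.3, 27.3, 21.4 and 24.7 CPM in wild-type livers, a log2 fold change of −0.76 (SE 0.18), with an adjusted p of 0.259 in edgeR and 0.0141 in DESeq2. Gbp3 (mm10 chr3:142560044-142573213, plus strand) had 19.4, 19.3 and 16.6 CPM in het-labelled livers and 26.02, 24.9, 22.7, 24.99 and 24.1 CPM in wild-type livers, a log2 fold change of −0.41 (SE 0.12), with an adjusted p of 0.259 in edgeR and 0.0539 in DESeq2. In both genes every het-labelled library was below every wild-type library. Igtp (Irgm3) had 28.1, 21.4 and 24.5 CPM in het-labelled livers and 38.1, 33.02, 32.3, 25.2 and 21.6 CPM in wild-type livers, a log2 fold change of −0.29 (SE 0.20). Iigp1 (Irga6) had 469, 444 and 482 CPM in het-labelled livers and 493.2, 727, 358, 665 and 688 CPM in wild-type livers, a log2 fold change of −0.33 (SE 0.25). Iigp1 was even across the het-labelled livers and uneven across wild-type livers, with wild-type liver 3 the lowest of all 8. Irgm1, a regulator of the other immunity-related GTPases, had a log2 fold change of −0.18 (SE 0.14), and Gbp7 had −0.066 (SE 0.17). These families hold near-identical copies, so how reads were split among them is uncertain.

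**Figure D4:**
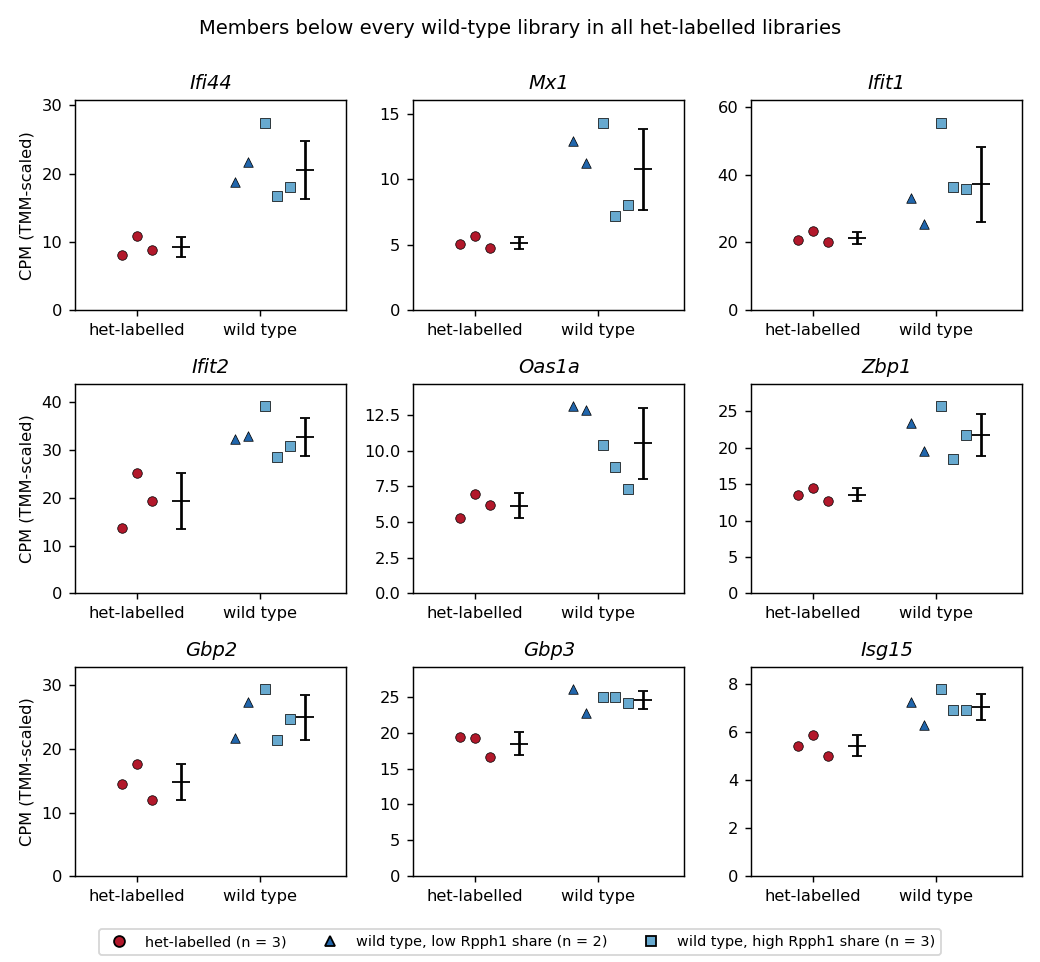
TMM-scaled CPM by library for the 9 members whose het-labelled libraries were all below all wild-type libraries. Each point is 1 liver, het-labelled (n = 3) left and wild type (n = 5) right, the bar is the group mean and its error bar the SD, and each vertical axis starts at 0. For Ifi44 the het-labelled livers lie between 8.11 and 10.9 CPM and the wild-type livers between 16.7 and 27.5 CPM.

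The classes by dominant interferon had medians close to each other. The 31 type I-dominant members had a median log2 fold change of −0.28, with 9 lower at an unadjusted p under 0.05 and 7 below every wild-type library. Over all genes tested, 5.43% were lower and 2.32% were below every wild-type library. The 7 gamma-dominant members had a median of −0.29 and all 7 estimates were negative, with 2 lower (Gbp2 and Gbp3), and these 2 were also below every wild-type library. The difference between the classes was not tested. Among the members with a promoter window, those with ISRE letters had a median log2 fold change of −0.30, with 6 of 16 lower at an unadjusted p under 0.05. Those without had a median of −0.20, with 2 of 12 lower, against 5.43% of all genes tested. Ifi44, with the lowest fold change, has neither motif in its window.

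Levels per length, in the deposited RPKM, spanned a wide range. Iigp1 was highest at 138 ± 5.20 RPKM in het-labelled livers and 177 ± 43.1 RPKM in wild-type livers (mean ± SD, n = 3 and 5), followed by Bst2 at 119 ± 4.39 RPKM in het-labelled livers and 120.1 ± 14.9 RPKM in wild-type livers and Ifi27 at 62.2 ± 4.80 RPKM in het-labelled livers and 69.8 ± 18.5 RPKM in wild-type livers. The spread of Iigp1 was wide within wild-type livers and narrow within het-labelled livers. Oas3 was lowest at 0.984 ± 0.336 RPKM in het-labelled livers and 1.45 ± 0.436 RPKM in wild-type livers, below Mx1 at 1.66 ± 0.154 RPKM in het-labelled livers and 3.54 ± 0.980 RPKM in wild-type livers. The 9 members without overlap had between 100 and 1077 counts in a library.

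How far the members differed depended on the wild-type libraries. Over the 38 members, the median of log2 CPM centred on each gene was −0.17, −0.19 and −0.13 in het-labelled livers 1, 2 and 3, and 0.32, 0.17, 0.20, −0.029 and −0.12 in wild-type livers 1 to 5. Wild-type liver 5 was thus close to the het-labelled livers. Of the 38 members, the lowest of the 8 libraries was a het-labelled one for 21, wild-type liver 5 for 12 and wild-type liver 3 for 5. The highest was a het-labelled library for 3 and a wild-type library for 35, of which wild-type livers 1 and 2 took 14 each. The coefficient of variation had a median of 10.75% within the het-labelled livers and 18.6% within wild-type livers, and it was larger within wild-type livers for 26 members. Neither the tallies of lowest and highest libraries nor this spread was computed over all genes, so they are not shown to be particular to the members. Both wild-type livers 1 and 3 were above wild-type livers 2, 4 and 5 for 15 members, an order that 31.8% of all genes had. They were below for 3 (Ifit1, Ifi35 and Iigp1), an order that 31.1% of all genes had.

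The comparison was repeated against each set of wild-type livers, a choice made after seeing the data, and both share the 3 het-labelled livers. Against wild-type livers 1 and 3 the members had a median log2 fold change of −0.51, 24 were lower at an unadjusted p under 0.05, against 14.9% of all genes, and 30 were below both libraries, against 26% of all genes. No member passed the adjusted threshold there, with 0.0478% of genes called lower. Against wild-type livers 2, 4 and 5 the members' median was −0.19, 12 members were lower at an unadjusted p under 0.05, against 18.7% of all genes, and 13 were below all 3 libraries, against 21.4% of all genes. There 7 members passed the adjusted threshold as lower (Ifi44, Mx1, Zbp1, Ifit1, Gbp2, Gbp3 and Iigp1), and so did 10.5% of all genes, while 0 members and 8.4% of all genes passed as higher. None was higher at an unadjusted p under 0.05 in either comparison. Of all genes, 16.7% were higher against wild-type livers 1 and 3, and 18.8% against wild-type livers 2, 4 and 5.

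Several leading members had like estimates against both sets. The log2 fold change of Ifi44 was −1.19 against wild-type livers 1 and 3 and −1.21 against wild-type livers 2, 4 and 5. In the same order it was −0.80 and −0.82 for Gbp2, −0.72 and −0.74 for Zbp1, −0.81 and −0.81 for Ifit2, and −0.47 and −0.47 for Gbp3. Other members had estimates further apart, and whether those of a gene differ was not tested. Mx1 had −1.29 (SE 0.17) and −0.99 (SE 0.28). Oas1a had −1.14 (SE 0.18) and −0.58 (SE 0.21), and Ifit1 had −0.51 (SE 0.15) and −1.04 (SE 0.19). Oasl2 had −1.23 (SE 0.26) and 0.28 (SE 0.26). Xaf1 had −1.001 (SE 0.14) and 0.086 (SE 0.18), and Iigp1 had 0.065 (SE 0.19) and −0.62 (SE 0.14). For Oasl2, Xaf1 and Iigp1 the sign thus turned with the set of wild-type livers. None of their positive estimates had an unadjusted p under 0.05.

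**Figure D5:**
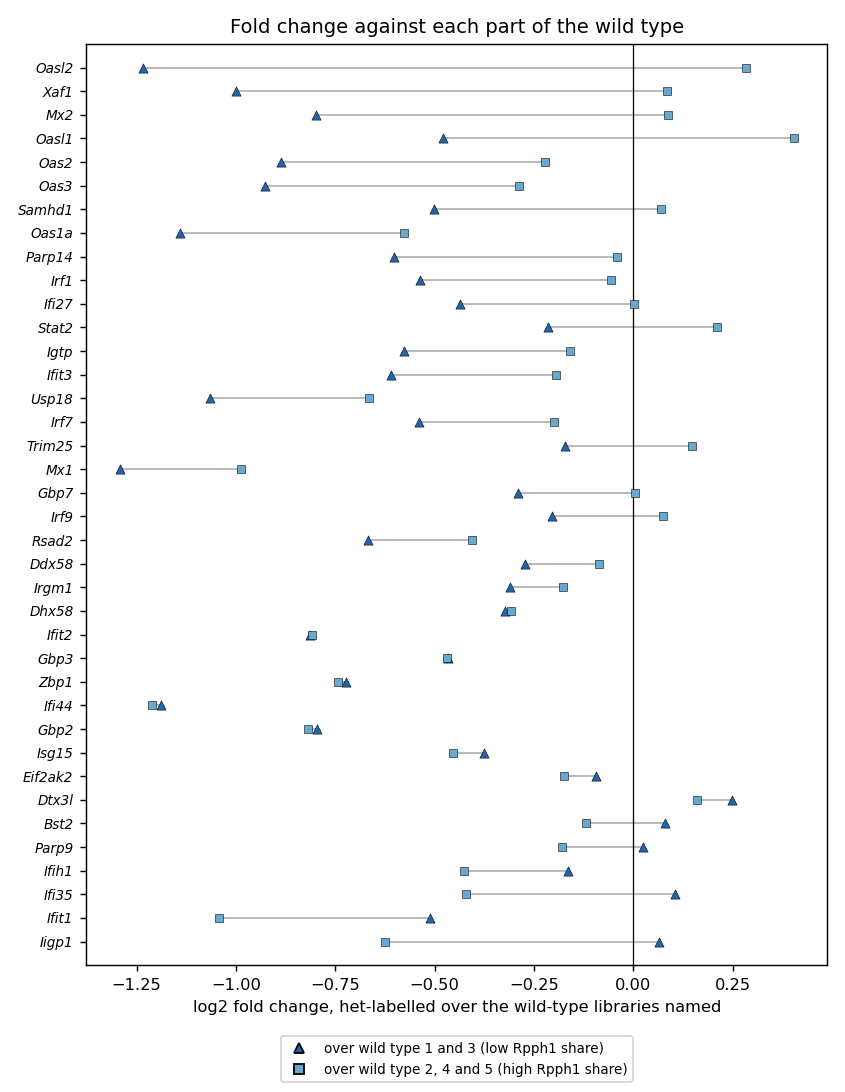
Log2 fold change of each member in het-labelled livers against wild-type livers 1 and 3 and against wild-type livers 2, 4 and 5, from separate edgeR fits that share the 3 het-labelled livers. The points nearly coincide for Ifi44, Gbp2, Zbp1, Ifit2 and Gbp3 and lie far apart for Oasl2, Xaf1 and Mx2.

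Other genes of the pathway were taken from lists that hold none of the 38 members. These lists were also chosen with earlier results known and come from the same 8 livers, so they are not independent of the members. Among 26 further type I-responsive genes, 13 were lower and 0 higher at an unadjusted p under 0.05, and 8 were below every wild-type library. The median log2 fold change of the 26 was −0.44. Of all genes tested, 5.43% were lower, 10.3% higher and 2.32% below every wild-type library. Slfn5 had 44.2, 56.6 and 53.04 CPM in het-labelled livers and 78.1, 80.5, 81.1, 70.3 and 79.8 CPM in wild-type livers, a log2 fold change of −0.61 (SE 0.13) with an adjusted p of 0.259 in edgeR and 0.00265 in DESeq2. The log2 fold change was −0.54 (SE 0.15) for Trim30a, −0.67 (SE 0.20) for Ddx60 and −0.90 (SE 0.29) for Oas1g. Among 23 tested gamma-responsive genes, 7 were lower and 1 higher, with a median of −0.30, and 2 were below every wild-type library. The 7 include Socs1, at under 1 CPM in every library, which is also in the list of inhibitors. Cd274 (PD-L1), a ligand that restrains T cells, had 8.53, 8.02 and 8.67 CPM in het-labelled livers and 14.4, 14.3, 13.6, 11.4 and 14.4 CPM in wild-type livers, a log2 fold change of −0.70 (SE 0.14) with an adjusted p of 0.259 in edgeR and 0.00265 in DESeq2. For Slfn5 and Cd274 the groups did not overlap. The log2 fold change was −0.61 (SE 0.16) for Gbp9, −0.78 (SE 0.24) for Gbp8 and −1.06 (SE 0.35) for Tgtp2. The gene that was higher was Gbp10, named after its values were seen, with 17.97, 13.3 and 17.5 CPM in het-labelled livers and 8.66, 8.19, 5.27, 14.5 and 10.3 CPM in wild-type livers and a log2 fold change of 0.80 (SE 0.29).

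Upstream, 2 of 15 tested genes that induce interferon or act on its induction were lower and 1 was higher at an unadjusted p under 0.05. Of all genes tested, 5.43% were lower and 10.3% higher. The median log2 fold change of the 15 was −0.15. Irf8, a factor of myeloid and dendritic cells, had 15.5, 22.8 and 15.6 CPM in het-labelled livers and 28.1, 30.1, 30.7, 27.6 and 30.3 CPM in wild-type livers, a log2 fold change of −0.71 (SE 0.16) with an adjusted p of 0.259 in edgeR and 0.0112 in DESeq2. Its groups did not overlap. Tlr7, an endosomal sensor of single-stranded RNA, had 11.5, 22.5 and 12.6 CPM in het-labelled livers and 18.3, 45.3, 20.8, 35.97 and 50.5 CPM in wild-type livers, a log2 fold change of −1.13 (SE 0.39). Mavs, the adaptor below RIG-I and MDA5, had 92.1, 56.1 and 81.9 CPM in het-labelled livers and 65.2, 37.4, 54.9, 55.2 and 46.2 CPM in wild-type livers and was higher, with a log2 fold change of 0.57 (SE 0.22), while Myd88, the adaptor below Tlr7, had 0.35 (SE 0.17). Of 9 inhibitors, Socs1 was lower with a log2 fold change of −1.17 (SE 0.51), and Irf2, a repressor at ISRE sites, was higher with 0.55 (SE 0.24). Socs3 had −0.75 (SE 0.34) and Ptpn11 had 0.31 (SE 0.15), and neither passed an unadjusted p of 0.05.

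Most tested immune cell markers had negative estimates, as did 49.6% of all genes. All were negative for T and NK cells (11, median log2 fold change −0.87) and recruited macrophages (8, −0.68). So were those of plasmacytoid dendritic cells (4, −0.78) and of B and plasma cells (6, −0.59). For Kupffer cells 5 of 7 were negative (−0.47) and for neutrophils 3 of 5 (−0.11). The members' median was −0.28, while 6 of 7 hepatocyte markers were positive (0.56). Summed plasmacytoid dendritic cell markers, of which 2 of 4 tested were lower at an unadjusted p under 0.05, were 68.3 to 88.3 CPM in het-labelled livers and 93.6 to 134 CPM in wild-type livers. Tcf4 and Lair1, which many other cells also express, made up 95.2% to 97.7% of this sum and were the 2 lower genes. Siglech, the more specific marker, had 1.43, 2.04 and 1.24 CPM in het-labelled livers and 1.95, 4.02, 3.18, 1.54 and 2.65 CPM in wild-type livers, and its groups overlapped. Summed T and NK cell markers, with 3 of 11 tested lower, were 9.53 to 16.4 CPM in het-labelled livers and 10.9 to 36.4 CPM in wild-type livers. Kupffer cell markers (1 of 7 lower) summed to 494.5 to 641.7 CPM in het-labelled livers and 414.7 to 1738 CPM in wild-type livers. Recruited macrophage markers (1 of 8 lower) summed to 266.3 to 1087 CPM in het-labelled livers and 693.7 to 1135 CPM in wild-type livers, and the highest of the het-labelled sums was that of liver 2. Without het-labelled liver 2, 11 members, 10 of them among the 11 of the full comparison, were lower and 1, Dtx3l, was higher at an unadjusted p under 0.05, while 11.1% of all genes were lower and 13.4% higher. B and plasma cell markers (1 of 6 lower) summed to 5.95 to 8.45 CPM in het-labelled livers and 6.93 to 14.5 CPM in wild-type livers. Neutrophil markers (0 of 5 lower) summed to 16.2 to 41.1 CPM in het-labelled livers and 20.96 to 60.2 CPM in wild-type livers. No marker in these lists was at 0 in all 8 livers. Of 7 hepatocyte markers 3 were higher, while 10.3% of all genes tested were higher and 5.43% lower. Endothelial markers summed to 379 to 518 CPM in het-labelled livers and 336 to 450 CPM in wild-type livers, with 1 of 6 higher. Stellate cell markers summed to 691 to 1167 CPM in het-labelled livers and 823 to 1007 CPM in wild-type livers, with 2 of 6 higher. Bile duct markers summed to 146 to 735 CPM in het-labelled livers and 404 to 869 CPM in wild-type livers, with 0 of 5 called in either direction. Spp1 stands in both the bile duct and the recruited macrophage list and made up 88.5% to 96.9% of the bile duct sum and 49% to 71.2% of the macrophage sum. The part of these cells, and of Rpph1, in the lower values of the members was not tested.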

How the data were processed

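Liver RNA of 8 mice was sequenced after library preparation with a KAPA mRNA kit, per the labels' protocols. Per the submitters' processing notes, the tools were bcl2fastq 2.18.0.12, STAR and HTSeq on mouse build mm10. The sources used here give neither the versions of STAR and HTSeq nor the annotation, the counting mode or how strand was treated. The authors deposited raw counts per gene for 25078 genes, RPKM values and a total exon length per gene. Within 0.1%, 100% of the 136226 deposited RPKM values above 0 were count over exon length and 1 constant per library, worth 0.888 to 1.25 times the count total, whose origin the sources used here leave out. The tables had 0 sample columns that were not used. Gene coordinates are those of the deposited tables, and promoter windows are RefSeq's on GRCm38.p6.

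Groups follow the genotype label and replicates are numbered in accession order. Between replicates, chi-square per degree of freedom was at least 35.98 among het-labelled and 22.9 among wild-type pairs, so each library counted as 1 replicate. Library totals ran from 17508221 to 24916239 counts. Genes passing filterByExpr (minimum count 10, minimum total 15; 14438 genes) were scaled by TMM then tested by quasi-likelihood in edgeR (robust), two-sided, Benjamini-Hochberg adjusted at 0.05. SE is the absolute log2 fold change over the root of F. The exact permutation test covers the 56 assignments of 3 among 8 livers. The procedure was run on simulated counts with known fold changes. These were drawn without sets among the wild-type libraries, so they do not cover the split seen here. Motifs were searched on both strands of windows from 250 bases before to 50 bases after each start.

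Members, lists, classes and tests were chosen with earlier results of these data known. Every member is named. Values in every library are given for up to 4 members with the smallest p in each role group and for Midn, Ifnar1, Ifnar2, Ifngr1, Ifngr2, Ifnb1 and Ifng, and up to 4 genes with the smallest p are named from each other list. A further gene of this rule is not reported here. The alternatives changed the scaling (RLE, or library size alone), the tool (DESeq2, limma-voom, or limma on log2 RPKM plus 0.1 or 1), the filter (none, or a 1 CPM mean), the robust step (off) and the libraries (each left out once). The fits without Rn45s and Rpph1 and against each set of wild-type livers, chosen after seeing the data, also count among the 20. Versions were DESeq2 1.42.0, edgeR 4.0.16, limma 3.58.1, R 4.3.3, Python 3.11.15 and matplotlib 3.10.9.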

Additional observations from a re-analysis of the deposited data

Results flagged for a closer look

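Among the 63 genes with values in every wild-type library that were checked, 4 had 1 wild-type library far from the other 4, measured as its gap to the nearest library over the range of the group. Chance flags about 5% of such groups. Eif2ak2 had 48.1, 48.2 and 49.7 CPM in het-labelled livers and 50.9, 59.2, 48.5, 49.4 and 50.8 CPM in wild-type livers, and wild-type liver 2 was the highest with a gap of 0.772 of the range. Gbp7 had 45.3, 32.3 and 37.9 CPM in het-labelled livers and 50.7, 38.4, 39.5, 35.6 and 37.4 CPM in wild-type livers, and wild-type liver 1 was the highest with a gap of 0.742 of the range. Slfn5 was lowest in wild-type liver 4 with a gap of 0.716 of the range, and Cd274 was lowest in the same liver with a gap of 0.722. Those Slfn5 and Cd274 values still lay above every het-labelled library.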

How the results depend on the processing

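No paired analysis was possible because the replicate numbers were given in accession order and the labels pair no libraries. The number of members lower at an unadjusted p under 0.05 stayed between 9 and 14 over the other scalings, tests, filters and units. In those fits 5.02% to 8.3% of all genes were lower, and both the 14 and the 8.3% came from library size alone. In all 20 alternatives 7 members (Gbp2, Ifi44, Ifit1, Ifit2, Mx1, Oas1a and Zbp1) were lower. These 7 had no overlap in the full comparison, and the alternatives use the same 8 livers, so they are not independent of it. Leaving out 1 library gave 8 to 12 lower, 0 to 1 higher (Dtx3l without het-labelled liver 2), 9 to 13 below every wild-type library, 0 to 0 genes called by edgeR, and medians of −0.34 to −0.21 for all members, −0.35 to −0.21 for the type I-dominant and −0.34 to −0.19 for the gamma-dominant. Where this left 2 het-labelled libraries, 8, 11 and 8 members were lower without liver 1, 2 and 3, while 1.5%, 11.1% and 1.67% of all genes were. Without 1 wild-type library, 3.5% to 7.46% of all genes were lower. Over all fits with 1 library left out, 3.9% to 13.4% of all genes were higher. Fewer libraries make it easier for any gene to lie below every wild-type library, and the share of all genes with that order was not computed for these fits. DESeq2 called 176 genes. Scaling by library size alone moved the median of all genes to −0.18, the members' median to −0.50, that of the type I-dominant to −0.51 and that of the gamma-dominant to −0.49, so relative to all genes the members' difference was little changed. Counting all genes at an unadjusted p under 0.05, 427 were higher under it and 1198 lower, under RLE 1148 and 973, under DESeq2 1333 and 1373, and under TMM 1487 and 784. Negative estimates numbered 35 of 38 under RLE, 37 under library size alone and 34 under DESeq2. Chosen after seeing the data were fits without Rn45s and Rpph1, in which 11 members and 5.43% of all genes were lower, and fits against each set of wild-type libraries. Against wild-type livers 1 and 3, 21 genes were called, 24 members were lower and 30 below both, and the medians were −0.51 for all members, −0.51 for the type I-dominant and −0.47 for the gamma-dominant. Of all genes, 14.9% were lower there and 26% were below both. Against wild-type livers 2, 4 and 5, 2632 genes were called. The signs that turned belonged to genes with estimates near 0 or to the fits against each set, and the cause was not tested. Under RLE the log2 fold change was −0.0054 for Oasl1, −0.033 for Irf9, −0.036 for Bst2, −0.041 for Midn and −0.013 for Ifnar2. Under library size alone it was −0.22 for Oasl1, −0.22 for Irf9, −0.14 for Stat2, −0.17 for Bst2, −0.15 for Trim25, −0.26 for Midn and −0.16 for Ifnar2. In DESeq2 it was −0.025 for Irf9, −0.028 for Bst2, −0.032 for Midn and −0.0057 for Ifnar2. Without a filter it was 0.00074 for Ifnar1, and at a mean of 1 CPM it was −0.0057 for Irf9, −0.0047 for Bst2 and −0.015 for Midn. On log2 RPKM it was −0.016 for Irf9 and −0.0086 for Bst2 with a pseudocount of 0.1, and −0.015 and −0.0086 with 1. Against wild-type livers 1 and 3 it was 0.11 for Ifi35, −0.48 for Oasl1, −0.21 for Irf9, −0.21 for Stat2, 0.026 for Parp9, −0.17 for Trim25, 0.065 for Iigp1, −0.54 for Midn, −0.15 for Ifnar2 and 0.14 for Ifngr2. Against wild-type livers 2, 4 and 5 it was 0.0017 for Ifi27, 0.28 for Oasl2, 0.089 for Mx2, −0.12 for Bst2, 0.086 for Xaf1, 0.071 for Samhd1, 0.0037 for Gbp7 and 0.022 for Ifnar1. With 1 library left out, ranges that crossed 0 were −0.11 to 0.048 for Bst2, −0.19 to 0.052 for Gbp7, −0.23 to 0.012 for Ifi27, −0.055 to 0.0098 for Ifnar1, −0.032 to 0.089 for Ifnar2, −0.083 to 0.15 for Irf9, −0.14 to 0.17 for Midn, −0.11 to 0.22 for Oasl1, −0.15 to 0.052 for Parp9, −0.019 to 0.18 for Stat2 and −0.066 to 0.18 for Trim25.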
